A study of Mus musculus with 12 samples.

Results

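The genes followed here were 38 genes of autophagy and the lysosome, chosen as a list of gene symbols, with no measured value in the rule. Earlier results of these data were known when the list was chosen. All 38 were found on the microarray, through 85 of its 56605 non-control probes. The cells were C2C12, a mouse myoblast line derived from the C3H strain that fuses into myotubes when serum is lowered. They carried either siBach1, an siRNA against the transcription repressor Bach1, or the control siRNA siControl, and RNA was taken at day 0, before differentiation, or at day 2, after 2 days in differentiation medium. Each of the 4 groups (siControl day 0, siBach1 day 0, siControl day 2 and siBach1 day 2) had 3 arrays, numbered 1 to 3. Per the study's methods a single siRNA against Bach1 was used for the arrays, so effects of its sequence on other transcripts cannot be told apart from those of losing Bach1. The labels do not say whether replicates came from separate cultures, so p-values measure only the spread between these arrays, which may be technical.

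In autophagy a double membrane grows around cytoplasm or an organelle, closes into an autophagosome and fuses with a lysosome, where acid hydrolases break the cargo down. The Ulk1 kinase complex starts the process, a lipid kinase complex around Becn1 marks the site, lipid-binding and lipid-supplying proteins enlarge the membrane, and ubiquitin-like conjugation attaches Atg8-family proteins (LC3 and Gabarap) to it. Cargo receptors such as p62 (Sqstm1) then bind to the Atg8 proteins. Skeletal muscle relies on the pathway to clear mitochondria and protein aggregates, and myoblasts are known to need it when they form myotubes. Bach1 is a heme-regulated repressor of antioxidant genes, with heme oxygenase-1 (Hmox1) as its best known target.

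The silencing was visible in these arrays. Throughout, a level is the log2 of the processed signal minus the 75th percentile of its array, and levels are compared between groups for 1 probe at a time. Bach1 lay at 1.73, 1.55 and 1.78 in siControl and at 0.18, -0.22 and -0.22 in siBach1 at day 0, a log2 fold change of -1.77 ± 0.11, adjusted p = 1.23e-05. At day 2 its log2 fold change was -1.97 ± 0.11, adjusted p = 1.36e-05. The Hmox1 probe that was above background rose by 3.30 and 3.12 on the log2 scale at day 0 and day 2, with adjusted p of 1.42e-06 and 2.77e-06.

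The arrays were alike in quality, with a signal clear of background for 47.6 to 58.9% of the probes on each. Replicates 1 and 2 shared a slide and replicate 3 lay on another. Marker signals were summed on the linear scale, with the log2 undone, from the brightest probe of each gene, so bright genes weigh most. All 8 muscle markers examined were well above background on the 12 arrays. Their sum was 69.8 to 83.8 in siControl and 63.6 to 79.3 in siBach1 at day 0, against 1244 to 1336 in siControl and 819 to 980 in siBach1 at day 2. Of 7 macrophage markers, which matter because macrophages are rich in lysosomes, 5 were above background in every array and Adgre1 was in none. The linear sum of the macrophage markers was 19.0 to 22.4 in siControl and 19.6 to 21.9 in siBach1 at day 0, and 26.2 to 34.5 and 21.9 to 33.1 at day 2. Cd68 among them is itself a lysosomal protein. The linear sum of 5 fibroblast markers was 7.74 to 11.4 at day 0 and 98.2 to 123.8 at day 2, with Thy1 above background on no array. Endothelial and adipocyte markers were at or near background, with Cdh5, Kdr, Tek and Adipoq above it on no array. The part of other cell types in the results below was not tested. The cultures were measured whole, so fewer cells of a type and less RNA per cell cannot be told apart.

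Of the 85 probes, 73 were tested, because in 1 group or more all 3 arrays read them well above background, and each of the 38 genes kept at least 1 of them. The other 12 probes, which belong to Gabarap, Gabarapl2, Atg13, Atg16l1, Atg4c, Ctsl, Nbr1, Rb1cc1 and Uvrag, were too dim and are described no further. A probe passed where its adjusted p (limma, Benjamini-Hochberg over all 29664 probes tested) was under 0.05.

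**Figure D1:**
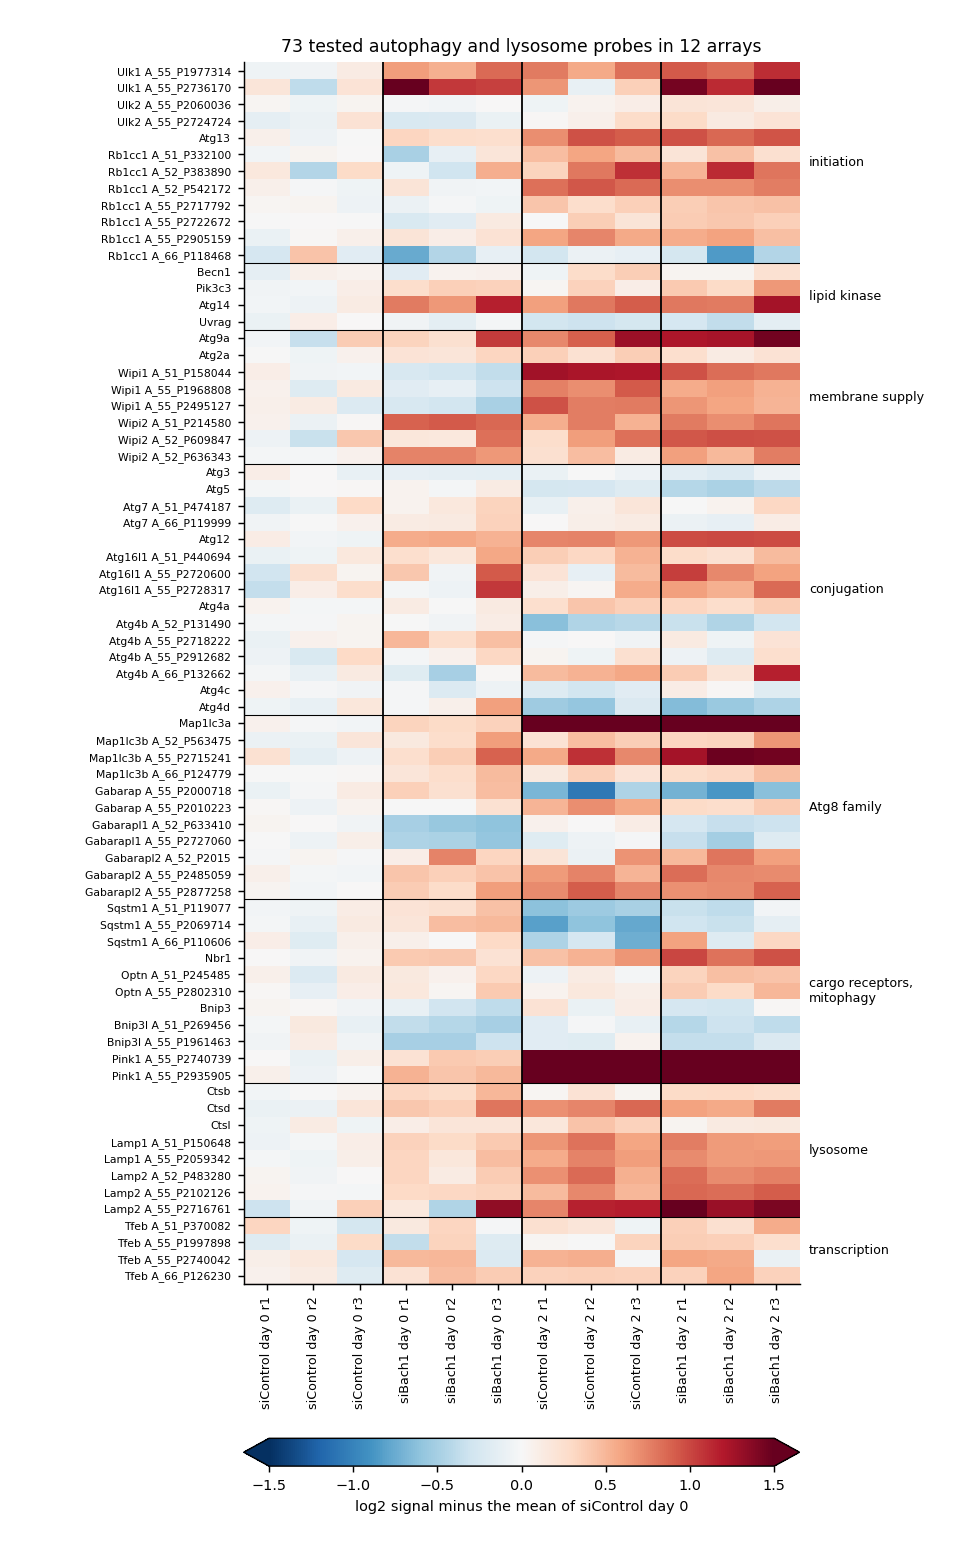
Level of the 73 tested probes (rows, grouped by role) in each of the 12 arrays (columns), as the log2 signal minus the mean of the 3 siControl day 0 arrays; red is higher, blue is lower and the colour stops at 1.5 in either direction. The lysosomal rows are red in most siBach1 day 0 arrays and in the day 2 arrays of both siRNAs, Map1lc3a and Pink1 go past the end of the scale at day 2, and the Gabarapl1 and Bnip3l rows are blue in siBach1 at day 0.

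Silencing of Bach1 at day 0 moved more of these probes up than down. In that comparison 20 of the 73 probes were higher in siBach1, where 8.8% of all probes tested were, and 5 were lower, where 8.32% of all were. The median log2 fold change was 0.24 for the members and 0.093 for all probes. By gene, 15 of 38 had a probe that rose, 3 had a probe that fell and 20 had none that passed. Counting any probe favours genes with many probes, and the like share over all genes was not counted. In a separate fit of 1 probe a gene, 14 of the 38 were higher and 3 lower, where 11.9% and 10.8% of all genes were. Groups did not overlap for 32 probes that were higher and 8 that were lower in siBach1, where 21.9% and 15.4% of all probes were so. The changes were small: 1 probe reached a fold change of 2, where 2.79% of all probes passed and reached it in either direction. That probe, the dimmer one of Ulk1, is among the 20 and was tested only through the siBach1 groups, where it was high. Quantile normalization left 11 higher and 5 lower, where 7.08% and 8.97% of all probes were. It lost both Lamp1 probes and those of Ctsb, Tfeb, Map1lc3a, Sqstm1, Nbr1, Atg4b and the dimmer Ulk1. The count of higher probes dropped to 8 without siControl day 0 replicate 1 or replicate 2 and to 9 without siBach1 day 0 replicate 3. Of all probes 5.29%, 4.98% and 5.5% were higher in these fits. The 10 probes that passed whichever of the 12 arrays was left out were those of Atg12, Atg14, both of Gabarapl1, 2 of Wipi2, and 1 each of Ulk1, Gabarapl2, Bnip3l and Pink1.

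At day 2 fewer probes differed between the siRNAs. The count was 7 higher, where 5.75% of all probes were, and 2 lower, where 6.26% were, with a member median of 0.075 and a median of -0.013 over all probes. The groups did not overlap for 18 higher and 12 lower probes, where 15.7% and 17.1% of all probes were so. No member passed with a fold change of 2, where 2.17% of all probes did in either direction. The 7 higher probes were 2 of Sqstm1 and 1 each of Nbr1, Optn, Pink1, Atg12 and Lamp2, and the 2 lower ones were of Gabarapl1 and Wipi1. The Gabarapl1 probe was the only one of the 9 that passed whichever array was left out. No member probe was higher without siControl day 2 replicate 1, siBach1 day 2 replicate 1 or siBach1 day 2 replicate 3, where 3.51%, 3.2% and 3.41% of all probes were. The split was 9 higher to 1 lower with quantile normalization, where 6.33% and 6.16% of all probes were. It was 4 to 3 with normexp background correction, where 4.76% and 7% of all were, and 10 to 6 with the replicate number as a block, where 9.78% and 11.6% were.

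More probes passed for differentiation than for silencing, among the members as over the whole array. In siControl 41 of the 73 passed (56.2%), against 53.4% of all probes, and in siBach1 36 passed (49.3%), against 56.1%. Passing in either direction was thus not particular to the members. The siControl calls split into 34 probes that were higher at day 2 than at day 0, where 24.6% of all probes were, and 7 that were lower, where 28.7% were. The member median was 0.32 against 0.0034 over all probes, and 22 genes had a probe that rose and 6 a probe that fell, Gabarap being in both counts. In siBach1 29 probes were higher, where 23.8% of all were, and 7 were lower, where 32.3% were, with medians of 0.23 for the members and -0.068 for all probes. There 17 genes had a probe that rose and 5 a probe that fell, with Gabarap and Atg4b in both counts. These gene counts again favour genes with many probes, and the like shares over all genes were not counted. In the separate fit of 1 probe a gene, 20 of the 38 genes rose and 4 fell in siControl, where 28.5% and 30.9% of all genes did. In siBach1 16 rose and 4 fell in that fit, where 27.3% and 33.9% did. The day 2 and day 0 groups did not overlap for 37 higher and 9 lower probes in siControl, where 29.1% and 32.8% of all probes were so, and for 30 and 9 in siBach1, where 25.9% and 35.4% were. A fold change of 2 was reached by 5 higher probes in siControl and by 5 higher and 1 lower in siBach1, where 20% and 20.5% of all probes passed and reached it in either direction.

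The siBach1 values over differentiation depended on the scaling. With quantile normalization 38 member probes were higher and 6 lower there, where 24.6% and 29.1% of all probes were. Of the 36 calls 33 were kept, 11 of them with a value over 1.5 times larger or smaller, 3 were lost and 11 probes were gained. In siControl 35 of the 41 calls were kept, none with such a move, 6 were lost and 4 were gained. The changed values are given with each gene, and the cause was not tested.

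A test of whether the effect of silencing differed between day 2 and day 0 passed for 1 of 73 probes, against 4.59% of all probes. It was a lower value, as for 2.2% of all probes, while 2.39% were higher, and no member passed with a difference of 2-fold, where 1.44% of all did. The probe was 1 of Wipi2. The median of this difference was -0.072 for the members and -0.073 for all probes. With the replicate number as a block, 7 member probes passed, all lower, where 7.86% of all probes were lower and 13% passed in either direction. Over all probes the calls were 52% higher, against 64.8% with quantile normalization and 42.7% with normexp background correction.

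**Figure D2:**
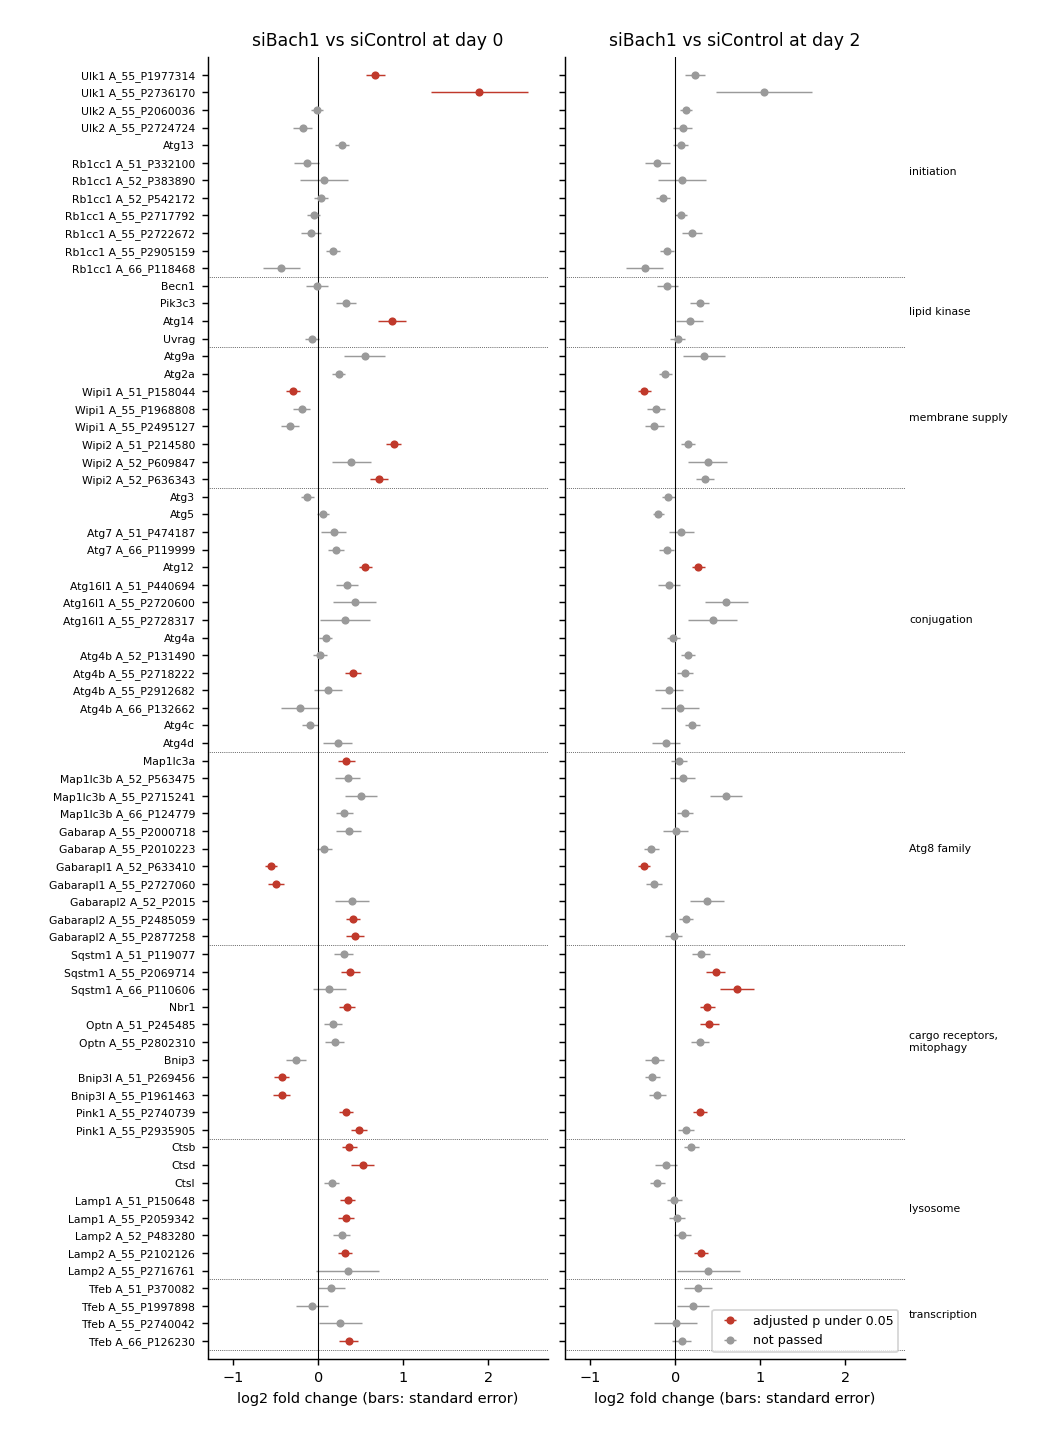
Log2 fold change of siBach1 against siControl at day 0 (left) and day 2 (right) for the 73 tested probes, grouped by role; points are estimates from 3 arrays a group, bars are standard errors and red points passed. At day 0, 20 red points lie to the right of 0 and 5 to the left, and at day 2 there are 7 and 2.

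The lysosomal genes had 8 tested probes, and at day 0 5 of them were higher in siBach1 and none was lower, where 8.8% and 8.32% of all probes were. Their median was 0.33, and Ctsl did not pass. With quantile normalization 3 of the 5 calls, of Ctsb and both Lamp1 probes, were lost. These genes encode cathepsin B (Ctsb) and cathepsin L (Ctsl), cysteine proteases, cathepsin D (Ctsd), an aspartic protease, and Lamp1 and Lamp2, the heavily glycosylated proteins that line the lysosomal membrane. At day 2 only 1 of the 8 passed, a Lamp2 probe that was higher, as 5.75% of all probes were. In siControl 7 of the 8 were higher at day 2 than at day 0, where 24.6% of all probes were, and in siBach1 5 of the 8 were, where 23.8% were. No lysosomal probe was lower in any of these 4 comparisons. Neighbouring comparisons share arrays: the siControl day 0 arrays serve both the silencing comparison at day 0 and the differentiation comparison in siControl, so their values are given side by side and not as support for each other.

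Ctsd had the largest effect of the lysosomal genes that passed at day 0. Its level was 5.28, 5.29 and 5.57 in siControl and 5.79, 5.74 and 6.18 in siBach1 at day 0, and 6.07, 6.12 and 6.25 in siControl and 5.99, 5.95 and 6.17 in siBach1 at day 2. The 3 siBach1 arrays at day 0 lay above the siControl ones without overlap, while at day 2 both siRNAs overlapped at a higher level. The log2 fold change of silencing was 0.52 ± 0.13, adjusted p = 0.023 at day 0, a fold of 1.43, and -0.11 ± 0.13, adjusted p = 0.66 at day 2. Over differentiation Ctsd rose by 0.76 in siControl (adjusted p = 0.000648), and its change in siBach1 was 0.13 ± 0.13, adjusted p = 0.434. With quantile normalization the siBach1 value was larger and passed (0.47, adjusted p = 0.00583). The effect of silencing was -0.63 ± 0.19 at day 2 relative to day 0, which did not pass (adjusted p = 0.0853) and did with the replicate block (adjusted p = 0.012).

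Lamp1 was read by a pair of probes that gave the same picture. For the dimmer one the level was 5.60, 5.65 and 5.78 in siControl and 6.03, 5.96 and 6.07 in siBach1 at day 0, then 6.34, 6.50 and 6.27 and 6.44, 6.31 and 6.31 at day 2. As for Ctsd, the siRNA groups were apart at day 0 and overlapped at day 2. Silencing gave 0.34 ± 0.088, adjusted p = 0.0236 at day 0 and -0.015 ± 0.088, adjusted p = 0.943 at day 2, and the second probe gave 0.32 ± 0.092, adjusted p = 0.038 and 0.022 ± 0.092, adjusted p = 0.918. The difference between the days did not pass at either probe in the fit without a block (-0.36 ± 0.12, adjusted p = 0.128 and -0.30 ± 0.13, adjusted p = 0.215). With quantile normalization neither probe passed at day 0 (adjusted p = 0.0753 and 0.166). Both probes rose over differentiation, by 0.69 and 0.64 in siControl and by 0.33 and 0.35 in siBach1. Quantile normalization gave 0.81 and 0.72 in siControl and 0.69 and 0.73 in siBach1.

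Lamp2, the other lysosomal membrane protein, had 3 tested probes. The probe that passed read 1.97, 1.91 and 1.89 in siControl and 2.22, 2.24 and 2.26 in siBach1 at day 0, and 2.40, 2.64 and 2.42 and 2.79, 2.76 and 2.84 at day 2. Here the groups were apart at both times, and the effect of silencing was 0.31 ± 0.081, adjusted p = 0.0235 at day 0 and 0.31 ± 0.081, adjusted p = 0.035 at day 2. These calls were lost in 6 and in 9 of the 12 fits that left out an array. The other probes gave 0.27 ± 0.10, adjusted p = 0.0971 and 0.34 ± 0.37, adjusted p = 0.583 at day 0, and 0.082 ± 0.10, adjusted p = 0.671 and 0.39 ± 0.37, adjusted p = 0.558 at day 2. All 3 rose over differentiation, by 0.56 to 1.02 in siControl and by 0.50 to 1.06 in siBach1, on the log2 scale. With quantile normalization the rise of the dimmest, A_55_P2716761, did not pass (adjusted p = 0.0732 and 0.0579), and that of A_52_P483280 in siBach1 went from 0.50 to 0.79.

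Ctsb was higher in siBach1 at day 0, at 6.995, 6.96 and 7.18 against 6.64, 6.67 and 6.73 in siControl (0.36 ± 0.085, adjusted p = 0.0158). At day 2 it lay at 6.72, 6.90 and 6.72 in siControl and 6.97, 6.98 and 6.95 in siBach1 (0.19 ± 0.085, adjusted p = 0.186). Its change over differentiation was 0.098 ± 0.085, adjusted p = 0.365 in siControl and -0.077 ± 0.085, adjusted p = 0.479 in siBach1. Ctsl gave 0.15 ± 0.091, adjusted p = 0.281 and -0.21 ± 0.091, adjusted p = 0.164 for silencing at day 0 and day 2, so neither passed. It rose over differentiation in siControl (0.32 ± 0.091, adjusted p = 0.0134) and its value in siBach1 was -0.051 ± 0.091, adjusted p = 0.672. Under quantile normalization the siBach1 values of Ctsb and Ctsl over differentiation turned to 0.31 and 0.33, with adjusted p of 0.00357 and 0.0109. Ctsb then also passed for silencing at day 2 (0.34, adjusted p = 0.0143) and over differentiation in siControl (0.19, adjusted p = 0.041), and not for silencing at day 0 (0.22, adjusted p = 0.0666).

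Tfeb is the transcription factor best known for driving lysosomal and autophagy genes, through the E-box CACGTG. It had 4 tested probes, and 1 passed at day 0, narrowly. That probe read -2.93, -2.87 and -3.18 in siControl and -2.77, -2.53 and -2.62 in siBach1, a difference of 0.35 ± 0.11, adjusted p = 0.0495. The call was lost in 10 of the 12 fits that left out an array. The estimates of the others were 0.15, -0.076 and 0.26, with adjusted p from 0.543 to 0.831. At day 2 the 4 estimates ran from 0.0051 to 0.27 and none passed. In siControl the probe that passed at day 0 rose over differentiation (0.35 ± 0.11, adjusted p = 0.019), and in siBach1 none did. With quantile normalization that rise did not pass (0.17, adjusted p = 0.205). Over differentiation in siControl A_55_P2740042 passed with the replicate block (0.35, adjusted p = 0.00543), as it did at day 0 (adjusted p = 0.046). Tfeb activity is controlled largely by its location in the cell, which these arrays do not read.

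The promoters of the members were searched for the letters of 4 motifs on both strands: CACGTG, TGACNNNGC for Bach1 and Nrf2 with small Maf proteins, GTAAACA for FoxO factors and CAGCTG for myogenic factors. RefSeq promoter sequences on GRCm38.p6, which run from 250 bases before the start to 50 after it, were given for 30 of the 38 genes. CACGTG stood in 8 of these 30 genes (26.7%) and in 8.09% of all genes with a promoter, or 7.15% of 32851 promoters. Those 8 were Lamp1, Ctsd, Ctsl, Atg3, Atg5, Atg7, Atg14 and Bnip3. At day 0, 3 of the 8 had a probe that rose in siBach1 (Lamp1, Ctsd and Atg14), as did 9 of the 22 without the letters. TGACNNNGC stood in 4 of the 30 (Ctsd, Atg13, Ulk2 and Map1lc3b), CAGCTG in 9 and GTAAACA in none, against 14%, 18.3% and 4.05% of all genes with a promoter. A match is a description of the letters and not of binding.

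The stretches that hold CACGTG upstream of the start are printed here, because Tfeb, a member itself, is known to bind these letters; capitals mark the motif, and the strand is that of the gene.
Lamp1, chr8:13159090-13159160, plus strand: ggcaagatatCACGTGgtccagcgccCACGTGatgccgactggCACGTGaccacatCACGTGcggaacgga
Ctsd, chr7:142387910-142387935, minus strand: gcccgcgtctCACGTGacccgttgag
Ctsd, chr7:142388057-142388077, minus strand: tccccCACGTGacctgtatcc
Ctsl, chr13:64370741-64370766, minus strand: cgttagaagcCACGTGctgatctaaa
Atg3, chr16:45158725-45158773, plus strand: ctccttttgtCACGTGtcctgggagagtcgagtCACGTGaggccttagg
Atg5, chr10:44268315-44268338, plus strand: gagcgcttgcCACGTGgtcttggt
Atg7, chr6:114670954-114670979, plus strand: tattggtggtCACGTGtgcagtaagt
Bnip3, chr7:138909599-138909624, minus strand: gcacgcgccgCACGTGccacacgctc

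Lamp1 carried 4 copies within the last 61 bases before its start, and only 8 of the 32851 promoters held 4 or more. Ctsd carried 2 copies, at 245 and 98 bases before its start, and also 2 matches to TGACNNNGC, at 62 and 47 bases before it, the first of which overlapped a CAGCTG. The match of Atg14 lay across the start itself and is not printed.

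**Figure D3:**
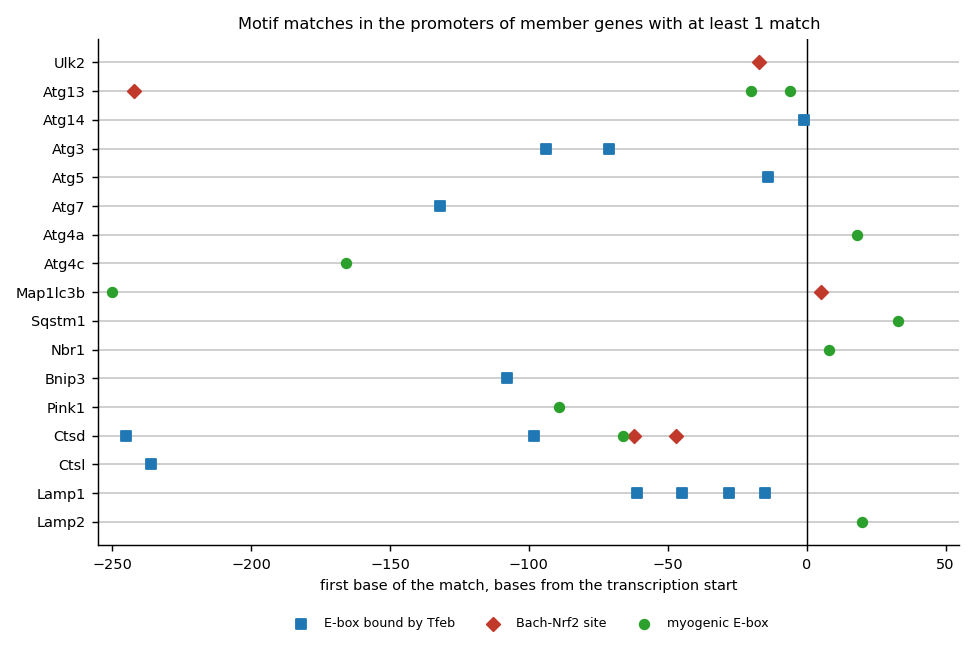
Position of each match (first base, in bases from the transcription start) in the promoters of the 17 member genes with at least 1 match, by motif. The 4 Tfeb-type E-boxes of Lamp1 sit closest together, between 61 and 15 bases before the start.

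The initiation genes encode the kinases Ulk1 and Ulk2 and their partners Atg13 and Rb1cc1 (FIP200). Among their 12 probes 2 passed at day 0, both of Ulk1, and none at day 2, where 17.1% and 12% of all probes passed. The dimmer of these 2 was tested only through the siBach1 groups. The brighter Ulk1 probe read 3.28, 3.29 and 3.47 in siControl and 3.98, 3.88 and 4.19 in siBach1 at day 0. At day 2 it read 4.12, 3.91 and 4.17 in siControl and 4.26, 4.19 and 4.45 in siBach1. All siBach1 arrays lay above all siControl arrays at each time, by a narrower gap at day 2. The log2 fold change was 0.67 ± 0.12, adjusted p = 0.00322 at day 0, a fold of 1.59, and 0.23 ± 0.12, adjusted p = 0.235 at day 2. With the replicate block the day 2 value passed (adjusted p = 0.0386), as did its difference between the days (adjusted p = 0.0219). Ulk1 rose by 0.72 over differentiation in siControl (adjusted p = 0.000362) and its change in siBach1 was 0.28 ± 0.12, adjusted p = 0.059, which passed with the block (adjusted p = 0.00463) and with quantile normalization (0.54, adjusted p = 0.000867).

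The second Ulk1 probe was dim, and not well above background on 1 array of siControl at each time. It met the filter only through the siBach1 groups, so its day 0 call is no separate support for a rise of Ulk1. It gave the largest day 0 estimate of any member, 1.89 ± 0.57, adjusted p = 0.0456, with a wide spread. The siBach1 arrays read -0.37, -2.89 and -2.92 and the siControl arrays -3.78, -4.33 and -3.75, and the first siBach1 array lay far above the other two. Without it the log2 fold change was 1.05 (adjusted p = 0.023), and the call was lost in 9 of the 12 fits that left out an array, those without any 1 of the siControl day 0 arrays included. Its day 2 value was 1.04 ± 0.57, adjusted p = 0.274. Ulk2, a second kinase of the same kind, did not pass for silencing, with estimates of -0.018 and -0.18 at day 0, and the second of its probes rose over differentiation in siBach1 (0.39 ± 0.11, adjusted p = 0.0117). The first passed there with quantile normalization (0.24, adjusted p = 0.0158, against 0.18 ± 0.074, adjusted p = 0.0662).

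Atg13, which scaffolds the kinase, read 2.58, 2.43 and 2.50 in siControl and 2.83, 2.77 and 2.75 in siBach1 at day 0. These groups did not overlap, and the difference just missed the threshold (0.28 ± 0.086, adjusted p = 0.0515), passing with the replicate block (adjusted p = 0.044). It rose over differentiation, by 0.86 in siControl and 0.64 in siBach1. None of the 7 Rb1cc1 probes passed for silencing, with estimates from -0.44 to 0.17 at day 0 and -0.36 to 0.20 at day 2. Over differentiation 5 of the 7 rose in siControl and 6 in siBach1, the clearest being A_52_P542172 at 0.87 and 0.69. With quantile normalization A_52_P383890 passed in neither (adjusted p = 0.129 and 0.13).

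In the lipid kinase complex the regulator Atg14, which directs the complex to autophagy, stood out. Its level was -0.015, -0.049 and 0.15 in siControl and 0.81, 0.68 and 1.19 in siBach1 at day 0, and 0.64, 0.82 and 0.94 in siControl and 0.82, 0.80 and 1.27 in siBach1 at day 2. Silencing raised it at day 0 without overlap, while the groups overlapped at day 2. The log2 fold change was 0.87 ± 0.16, adjusted p = 0.00533 at day 0, a fold of 1.82, and 0.17 ± 0.16, adjusted p = 0.573 at day 2. Its rise over differentiation was 0.77 in siControl (adjusted p = 0.00241), and the value in siBach1 was 0.069 ± 0.16, adjusted p = 0.753. The difference between the days, -0.70 ± 0.23, adjusted p = 0.113, passed with the replicate block (adjusted p = 0.0164).

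Becn1, the scaffold of the complex, passed in no comparison. Its levels at day 0 were 0.87, 1.09 and 1.06 in siControl and 0.84, 1.06 and 1.07 in siBach1, and the estimates were -0.019 ± 0.13 at day 0, -0.095 ± 0.13 at day 2, 0.19 ± 0.13 over differentiation in siControl and 0.12 ± 0.13 in siBach1. Pik3c3, the kinase itself, had silencing estimates of 0.32 ± 0.11, adjusted p = 0.0797 at day 0 and 0.29 ± 0.11, adjusted p = 0.134 at day 2. Uvrag, the alternative partner of Becn1, fell by 0.28 over differentiation in siControl (adjusted p = 0.0158) and was -0.18 ± 0.084, adjusted p = 0.0888 in siBach1. With quantile normalization the siControl value did not pass (-0.19, adjusted p = 0.0512).

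The membrane supply genes encode Atg9a, a vesicle protein that seeds the membrane, Atg2a, which transfers lipid, and Wipi1 and Wipi2, which bind the lipid made by Pik3c3. In siControl 7 of their 8 probes rose over differentiation, where 24.6% of all probes did, and in siBach1 4 did, where 23.8% did. Their response to silencing went both ways: at day 0 2 probes of Wipi2 rose and 1 of Wipi1 fell, where 8.8% and 8.32% of all probes did.

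Wipi2 had the smallest adjusted p of the members at day 0. Probe A_51_P214580 read 0.18, 0.016 and 0.13 in siControl and 0.99, 1.02 and 0.96 in siBach1 at day 0, against 0.65, 0.88 and 0.63 in siControl and 0.89, 0.81 and 0.91 in siBach1 at day 2. The siBach1 arrays were far above siControl at day 0 and overlapped it at day 2. The log2 fold change of silencing was 0.88 ± 0.087, adjusted p = 0.000122 at day 0, a fold of 1.85, and 0.15 ± 0.087, adjusted p = 0.306 at day 2. Their difference was -0.73 ± 0.12, adjusted p = 0.0135, in the same direction in slide 1 (-0.83) and slide 2 (-0.55). The probe rose over differentiation in siControl (0.61 ± 0.087, adjusted p = 0.00016) and read -0.12 ± 0.087, adjusted p = 0.258 in siBach1.

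The second bright Wipi2 probe, A_52_P636343, gave 0.71 ± 0.10, adjusted p = 0.00126 at day 0 and 0.35 ± 0.10, adjusted p = 0.0556 at day 2, which passed with quantile normalization (adjusted p = 0.0385), and its difference between the days did not pass (-0.36 ± 0.15, adjusted p = 0.187). The dim probe gave 0.38 ± 0.23, adjusted p = 0.287 and 0.38 ± 0.23, adjusted p = 0.322, with a difference between the days of -0.0034 ± 0.32. Over differentiation in siControl the second probe rose by 0.28 (adjusted p = 0.0462), a call lost with the replicate block (adjusted p = 0.0523), whereas the dim probe passed with it (adjusted p = 0.0126 for 0.57). The difference between the days thus passed at 1 of the 3 Wipi2 probes.

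Wipi1 moved the other way under silencing. Probe A_51_P158044 read -0.0019, -0.15 and -0.13 in siControl and -0.34, -0.38 and -0.47 in siBach1 at day 0, then 1.16, 1.12 and 1.11 and 0.86, 0.75 and 0.70 at day 2. It was lower in siBach1 at both times without overlap, by -0.30 ± 0.078, adjusted p = 0.0258 and -0.37 ± 0.078, adjusted p = 0.0147. The other Wipi1 probes gave -0.20 and -0.34 at day 0 and -0.23 and -0.25 at day 2, below 0 throughout without passing. The last of them passed at each time with the replicate block (adjusted p = 0.012 and 0.0448). All 3 rose over differentiation, A_51_P158044 by 1.23 in siControl and 1.16 in siBach1, folds of 2.35 and 2.24.

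Atg9a rose over differentiation, from -2.71, -3.02 and -2.29 to -1.95, -1.78 and -1.39 in siControl (0.96 ± 0.25, adjusted p = 0.00692). In siBach1 its log2 fold change was 0.76 ± 0.25, adjusted p = 0.0229. Atg2a rose in siControl by 0.32 (adjusted p = 0.00637) and read -0.038 ± 0.079, adjusted p = 0.722 in siBach1. Neither passed for silencing, with day 0 estimates of 0.54 ± 0.25, adjusted p = 0.163 for Atg9a and 0.24 ± 0.079, adjusted p = 0.0686 for Atg2a, and both passed at day 0 with the replicate block (adjusted p = 0.0162 and 0.0183).

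**Figure D4:**
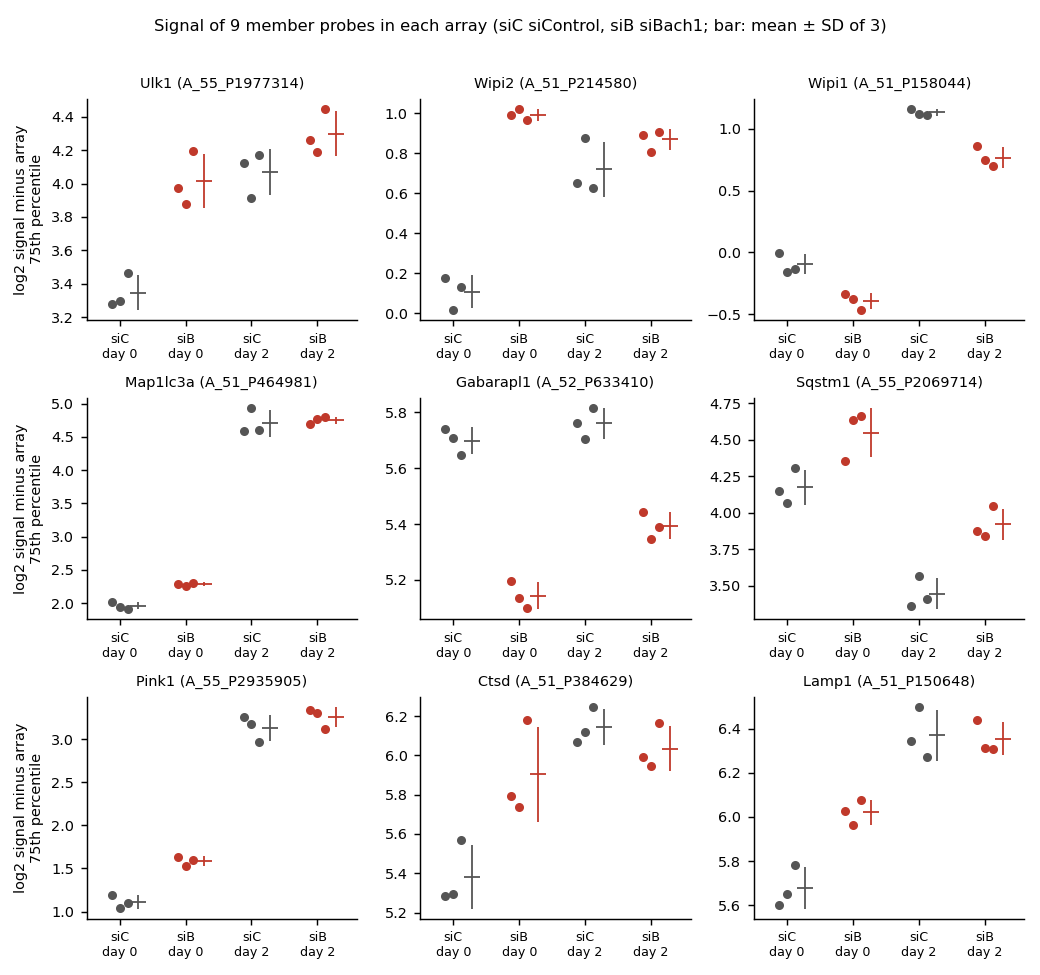
Level (log2 signal minus the 75th percentile of the array) of 9 member probes in the 12 arrays; grey points are siControl, red points are siBach1, and the bar beside each group is the mean with the SD of its 3 arrays; the vertical axes do not start at 0. Ulk1, Wipi2, Ctsd and Lamp1 are apart between siRNAs at day 0 and closer at day 2, Wipi1, Gabarapl1 and Sqstm1 are apart at both times, and Map1lc3a and Pink1 differ mostly between days.

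The conjugation genes form the largest group, with 9 genes and 15 tested probes. They encode the ubiquitin-like Atg12, its partners Atg5 and Atg16l1, the activating enzyme Atg7, the transferring enzyme Atg3 and the proteases Atg4a to Atg4d, which process the Atg8 proteins. At day 0 2 probes rose in siBach1, of Atg12 and Atg4b, where 8.8% of all probes did, and at day 2 only that of Atg12, where 5.75% did. None was lower at either time, where 8.32% and 6.26% of all were. Over differentiation 3 rose and 3 fell in siControl, where 24.6% and 28.7% of all probes did. In siBach1 3 rose and 4 fell, where 23.8% and 32.3% did.

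Atg12 read 3.51, 3.35 and 3.33 in siControl and 3.95, 3.97 and 3.91 in siBach1 at day 0, and 4.13, 4.14 and 4.04 and 4.37, 4.38 and 4.37 at day 2. No array of either siRNA overlapped the other at the same time, and each step, by silencing or by differentiation, went up. Silencing gave 0.55 ± 0.073, adjusted p = 0.000725 at day 0 and 0.27 ± 0.073, adjusted p = 0.0399 at day 2. The day 2 call was lost in 9 of the 12 fits that left out an array. Differentiation gave 0.71 ± 0.073, adjusted p = 1.77e-05 in siControl and 0.43 ± 0.073, adjusted p = 0.000557 in siBach1, the last being 0.69 with quantile normalization.

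Atg5, to which Atg12 is joined, went down over differentiation. It read 2.73, 2.76 and 2.77 at day 0 and 2.49, 2.51 and 2.56 at day 2 in siControl, and 2.81, 2.73 and 2.88 and 2.33, 2.27 and 2.36 in siBach1. The groups did not overlap, and the change was -0.23 ± 0.069, adjusted p = 0.0155 in siControl and -0.48 ± 0.069, adjusted p = 0.000162 in siBach1. Quantile normalization made both smaller, and the siControl call was lost (-0.13, adjusted p = 0.1 and -0.31, adjusted p = 0.00135). At day 2 it was lower in siBach1 by -0.20 ± 0.069, adjusted p = 0.0929, which passed with the replicate block (adjusted p = 0.04). Atg16l1 had 1 probe that rose over differentiation in siControl (0.40 ± 0.13, adjusted p = 0.0229), and none of its 3 passed for silencing; that same probe passed at day 0 with the block (0.34, adjusted p = 0.00686).

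Atg3 and Atg7 passed in none of the 4 comparisons, with estimates between -0.24 and 0.20. With quantile normalization Atg3 passed in siBach1 over differentiation (0.21, adjusted p = 0.0497, against -0.012). With the replicate block Atg7 probe A_66_P119999 passed for silencing at day 0 (0.20, adjusted p = 0.0457) and for differentiation in siBach1 (-0.24, adjusted p = 0.0104). Among the Atg4 proteases, Atg4d fell by 0.45 over differentiation in siControl (adjusted p = 0.0449) and by 0.78 in siBach1 (adjusted p = 0.00239), and Atg4a rose by 0.34 and 0.24. The siControl fall of Atg4d did not pass with quantile normalization (-0.34, adjusted p = 0.0781). The 4 probes of Atg4b did not point one way. Over differentiation in siBach1 A_66_P132662 rose by 0.80 while A_52_P131490 fell by 0.37 and A_55_P2718222 by 0.31 (-0.47 with quantile normalization). The probe of Atg4b that was higher in siBach1 at day 0, A_55_P2718222, gave 0.41 ± 0.097, adjusted p = 0.0176, which quantile normalization did not keep (adjusted p = 0.0601). Atg4c had 1 tested probe, which passed in none of the comparisons, with estimates from -0.21 to 0.20, the lowest of which, over differentiation in siControl, passed with the block (adjusted p = 0.039).

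The Atg8 family are the proteins that become lipid-linked and sit on the autophagosome: Map1lc3a and Map1lc3b (LC3) and Gabarap, Gabarapl1 and Gabarapl2. The largest change of any member was here. Map1lc3a read 2.02, 1.94 and 1.92 in siControl and 2.30, 2.25 and 2.31 in siBach1 at day 0, and 4.58, 4.94 and 4.60 and 4.69, 4.76 and 4.79 at day 2. The days were far apart, and the siRNA groups were apart at day 0 and overlapped at day 2. It rose over differentiation by 2.74 ± 0.098 in siControl, a fold of 6.7 (adjusted p = 2.12e-08), and by 2.46 ± 0.098 in siBach1, a fold of 5.51 (adjusted p = 4.81e-08). Silencing gave 0.33 ± 0.098, adjusted p = 0.0465 at day 0 and 0.044 ± 0.098, adjusted p = 0.835 at day 2, the first of which was lost in 10 of the 12 fits that left out an array. The difference between the days did not pass in the fit without a block (-0.28 ± 0.14, adjusted p = 0.273).

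Map1lc3b, whose protein is the usual marker of autophagosomes, moved far less. Its 2 bright probes were higher over differentiation in siControl by 0.35 ± 0.15, adjusted p = 0.0698 and 0.23 ± 0.098, adjusted p = 0.0685, which passed with the replicate block (adjusted p = 0.0112 and 0.0355) and with quantile normalization (adjusted p = 0.0147 and 0.00301). In siBach1 A_66_P124779 was 0.042 ± 0.098, adjusted p = 0.751, and it passed with quantile normalization (0.39, adjusted p = 0.00216). For silencing they gave 0.34 ± 0.15, adjusted p = 0.147 and 0.31 ± 0.098, adjusted p = 0.0587 at day 0, which also passed with the block (adjusted p = 0.03 and 0.0273), and 0.085 and 0.11 at day 2. Another, dim, probe, well above background on 1 of the 3 siControl day 0 arrays, rose over differentiation by 0.79 and 0.89 and gave 0.50 ± 0.19, adjusted p = 0.099 and 0.59 ± 0.19, adjusted p = 0.0686 for silencing.

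Gabarapl1 was the member that fell most under silencing. It read 5.74, 5.71 and 5.65 in siControl and 5.20, 5.13 and 5.10 in siBach1 at day 0, and 5.76, 5.70 and 5.81 and 5.44, 5.35 and 5.39 at day 2. Every siBach1 array lay under every siControl array of both days. The log2 fold change was -0.56 ± 0.07, adjusted p = 0.000536 at day 0, a fold of 0.681, and -0.37 ± 0.07, adjusted p = 0.00913 at day 2, and the second probe gave -0.50 ± 0.095, adjusted p = 0.00536 and -0.25 ± 0.095, adjusted p = 0.115. With quantile normalization the day 2 value of the first probe was -0.23 and did not pass (adjusted p = 0.0873). Over differentiation it was 0.062 ± 0.07, adjusted p = 0.492 in siControl and rose in siBach1 (0.25 ± 0.07, adjusted p = 0.0109), where the second probe was 0.16 ± 0.095, adjusted p = 0.195. The siBach1 values were 0.58 and 0.25 with quantile normalization, and both then passed (adjusted p = 0.000107 and 0.0343).

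Gabarapl2, its close relative, went the other way. Its 2 bright probes read 4.13, 4.03 and 4.02 and 3.43, 3.34 and 3.39 in siControl at day 0, against 4.48, 4.42 and 4.49 and 3.76, 3.66 and 4.01 in siBach1. The groups did not overlap, and the differences were 0.40 ± 0.082, adjusted p = 0.00805 and 0.43 ± 0.10, adjusted p = 0.0192. At day 2 they were 0.12 ± 0.082, adjusted p = 0.378 and -0.022 ± 0.10, adjusted p = 0.93. The difference between the days did not pass at either probe in the fit without a block (-0.28 ± 0.12, adjusted p = 0.198 and -0.45 ± 0.15, adjusted p = 0.111). Both bright probes rose over differentiation, by 0.63 and 0.78 in siControl and by 0.35 and 0.33 in siBach1, the latter being 0.64 and 0.59 with quantile normalization. The dim probe gave 0.39 ± 0.20, adjusted p = 0.219 at day 0, 0.37 ± 0.20, adjusted p = 0.271 at day 2, and 0.26 and 0.24 over differentiation.

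The Gabarap probes disagreed over differentiation. The bright one, A_55_P2010223, rose from 5.98, 5.88 and 6.02 to 6.47, 6.65 and 6.53 in siControl (0.59 ± 0.091, adjusted p = 0.000276) and by 0.24 in siBach1 (adjusted p = 0.0457; 0.58 with quantile normalization). The dimmer one, A_55_P2000718, which carries no accession in the deposited table, fell from -1.42, -1.33 and -1.20 to -2.01, -2.40 and -1.78 (-0.74 ± 0.15, adjusted p = 0.00151) and by 1.09 in siBach1 (adjusted p = 0.000106). Which transcript it reads is not known from the files, so the direction of Gabarap is uncertain. For silencing the bright probe gave 0.07 ± 0.091, adjusted p = 0.658 at day 0 and -0.28 ± 0.091, adjusted p = 0.0702 at day 2, and the dimmer one 0.35 ± 0.15, adjusted p = 0.131 and 0.0071 ± 0.15, adjusted p = 0.984. The block turned the day 2 value of the bright probe (adjusted p = 0.0386) and the day 0 value of the dimmer one (adjusted p = 0.0323) into calls.

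Among the cargo receptors, Sqstm1, which links ubiquitinated cargo to LC3 and also releases the antioxidant factor Nrf2, was higher in siBach1 and lower after differentiation. Probe A_55_P2069714 read 4.15, 4.07 and 4.31 in siControl and 4.35, 4.63 and 4.66 in siBach1 at day 0, and 3.36, 3.57 and 3.41 and 3.88, 3.84 and 4.04 at day 2. The siRNA groups did not overlap at either time, and the siBach1 arrays at day 2 lay below the siControl arrays at day 0. Silencing gave 0.38 ± 0.11, adjusted p = 0.0432 at day 0 and 0.48 ± 0.11, adjusted p = 0.0218 at day 2, and differentiation gave -0.73 ± 0.11, adjusted p = 0.000265 in siControl and -0.63 ± 0.11, adjusted p = 0.00068 in siBach1. With quantile normalization the day 0 call was lost (adjusted p = 0.0627) and the siBach1 fall was smaller (-0.37, adjusted p = 0.0112).

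The brightest Sqstm1 probe, A_51_P119077, had the same signs. It gave 0.30 ± 0.11, adjusted p = 0.0923 and 0.30 ± 0.11, adjusted p = 0.103 for silencing, passing at each time with the replicate block (adjusted p = 0.0137 and 0.0161), and fell by 0.55 over differentiation in siControl and in siBach1 (adjusted p = 0.00146 in each). With quantile normalization the siBach1 fall did not pass (-0.15, adjusted p = 0.184), and silencing at day 2 did (0.47, adjusted p = 0.00975). The dim probe passed at day 2 (0.72 ± 0.20, adjusted p = 0.0407) and not at day 0 (0.13 ± 0.20, adjusted p = 0.717). Over differentiation the dim probe gave -0.48 ± 0.20, adjusted p = 0.0629 in siControl and 0.11 ± 0.20, adjusted p = 0.661 in siBach1. Quantile normalization ended its day 2 call (adjusted p = 0.0698) and made its siControl value a call (-0.66, adjusted p = 0.0162). The day 0 call of Sqstm1 was lost in 8 of the 12 fits that left out an array, the day 2 call of A_55_P2069714 in 4 and that of the dim probe in 9.

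Nbr1 and Optn, receptors for ubiquitinated cargo like p62, were also higher in siBach1 at day 2. Nbr1 read -1.18, -1.24 and -1.13 in siControl and -0.79, -0.78 and -0.97 in siBach1 at day 0, and -0.74, -0.66 and -0.52 and -0.18, -0.37 and -0.23 at day 2. It went up without overlap both with silencing (0.34 ± 0.091, adjusted p = 0.0299 at day 0, 0.38 ± 0.091, adjusted p = 0.0245 at day 2) and with differentiation (by 0.54 in siControl and 0.58 in siBach1). Optn passed at day 2 with 1 of 2 probes (0.40 ± 0.11, adjusted p = 0.0411), a call lost in 8 of the 12 fits that left out an array. The other probe was 0.29 ± 0.11, adjusted p = 0.116 (adjusted p = 0.045 with the block), and neither passed at day 0 or over differentiation. Of the 11 probes of cargo receptors and mitophagy genes, 5 were higher in siBach1 at day 2 and none was lower, where 5.75% and 6.26% of all probes were, and at day 0 4 were higher and 2 lower, where 8.8% and 8.32% were.

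The mitophagy genes split in 2 directions. Bnip3 and Bnip3l (Nix) are outer mitochondrial membrane proteins that bind Atg8 proteins, and Pink1 is the kinase that marks damaged mitochondria. Bnip3l was lower in siBach1 at day 0, at 2.66, 2.61 and 2.54 against 3.001, 3.19 and 2.92 in siControl. The difference was -0.43 ± 0.088, adjusted p = 0.00802, and the second probe agreed (-0.43 ± 0.098, adjusted p = 0.0132). At day 2 the arrays still did not overlap and the estimates were -0.27 ± 0.088, adjusted p = 0.074 and -0.21 ± 0.098, adjusted p = 0.196, the first of which passed with the replicate block (adjusted p = 0.03). Over differentiation they were -0.10 and -0.1 in siControl and 0.058 and 0.12 in siBach1, without passing, though both siBach1 values passed with quantile normalization (0.24, adjusted p = 0.043 and 0.38, adjusted p = 0.00303). Bnip3 did not pass in any comparison with the 75th percentile scaling, with -0.26 ± 0.12, adjusted p = 0.152 at day 0, -0.24 ± 0.12, adjusted p = 0.206 at day 2, and 0.076 and 0.094 over differentiation, the last of which passed with quantile normalization (0.34, adjusted p = 0.0298).

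Pink1 rose most over differentiation after Map1lc3a. Its brighter probe read 1.19, 1.04 and 1.10 at day 0 and 3.26, 3.17 and 2.97 at day 2 in siControl, and 1.64, 1.53 and 1.60 and 3.34, 3.31 and 3.12 in siBach1. The rise was 2.02 ± 0.098 in siControl, a fold of 4.06, and 1.67 ± 0.098 in siBach1, a fold of 3.18 (adjusted p = 1.32e-07 and 4.34e-07). The other probe rose by 1.59 and 1.55. Silencing raised both at day 0, by 0.48 ± 0.098, adjusted p = 0.00812 and 0.33 ± 0.083, adjusted p = 0.0229, and at day 2 the estimates were 0.12 ± 0.098, adjusted p = 0.464 and 0.29 ± 0.083, adjusted p = 0.0485. The last of these calls was lost whichever of the 12 arrays was left out. The difference between the days did not pass at either probe in the fit without a block (-0.35 ± 0.14, adjusted p = 0.172 and -0.037 ± 0.12, adjusted p = 0.908).

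**Figure D5:**
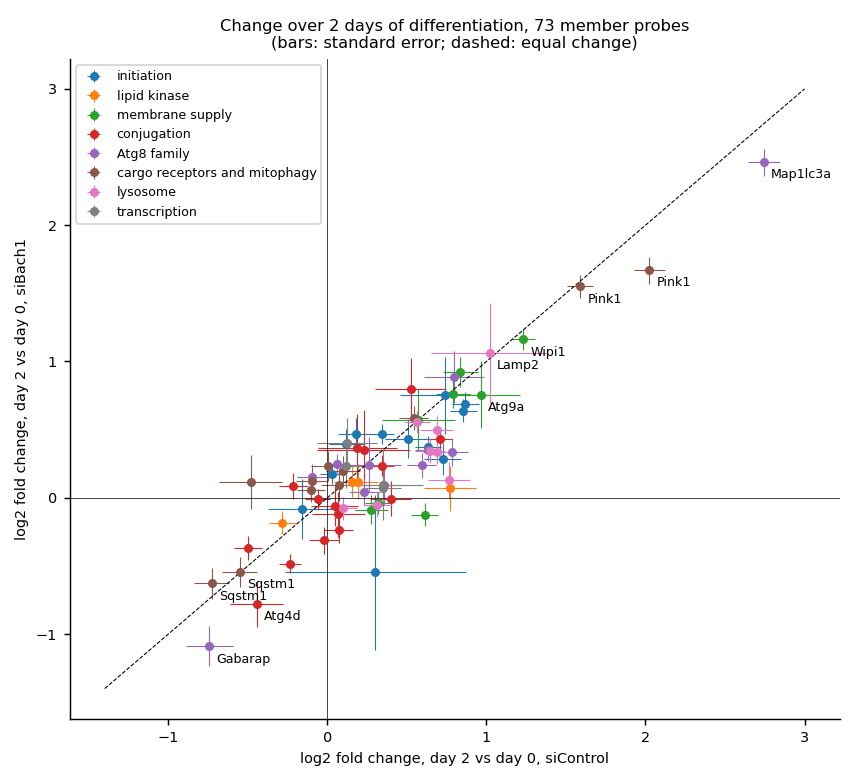
Log2 fold change of day 2 against day 0 in siControl (horizontal) and in siBach1 (vertical) for the 73 tested probes, coloured by role, with standard errors as bars and the dashed line at equal change; the axes share no arrays. Map1lc3a and the pair of Pink1 probes lie farthest to the upper right, and 1 Gabarap probe and 2 Sqstm1 probes lie at the lower left.

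Other genes of the pathway were counted as 1 probe a gene. Of 64 other lysosomal genes tested, 20 were higher and 3 lower in siBach1 at day 0, and 1 was higher and 2 lower at day 2. Of all 15642 genes so counted, 10.1% were higher and 9.85% lower at day 0, and 6.38% and 7.4% at day 2. Of the lysosomal genes that passed, those with the largest values at day 0 were the protease Ctsf (log2 fold change 0.68), the sialidase Neu1 (0.66), the thioesterase Ppt1 (0.63) and Nagpa (0.67), an enzyme of lysosomal targeting, which rose, and the mannosidase Man2b1 (-0.83), the ceramidase Asah1 (-0.81) and the phospholipase Pla2g15 (-0.64), which fell. Asah1 and Man2b1 were lower at day 2 as well (-0.59 and -0.51), and the cholesterol transporter Npc1 was higher (0.66). In siControl 35 of the 64 rose over differentiation and 3 fell, where 27.7% and 30.1% of all genes did, led by the protease Ctsc (3.12), Ctsf (1.93) and the cystine transporter Ctns (1.42). In siBach1 24 rose and 7 fell, where 26.7% and 33.3% of all genes did.

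Of 46 other autophagy genes tested, 12 were higher and 4 lower in siBach1 at day 0, and 5 and 3 at day 2, against the same shares of all genes. The autophagy receptor Calcoco1 (0.96), the tethering subunits Vps39 (0.71), Vps11 (0.53) and Vps41 (0.46), and Atg9b (0.69), the paralogue of Atg9a, rose at day 0. Dram1 (-0.71), a lysosomal membrane protein induced by p53, fell. At day 2 the genes with the largest values among those that passed were Atg9b, which was then lower (-0.70), Mitf (0.62), a relative of Tfeb, and the stress protein Sesn1 (0.47). Over differentiation in siControl 17 of the 46 rose and 7 fell, where 27.7% and 30.1% of all genes did. The risers were led by Calcoco1 (2.30), Trp53inp2 (2.00), which carries LC3 out of the nucleus, and the membrane-curving Sh3glb1 (1.27). Park2 (-1.08) was among the fallers. In siBach1 17 rose and 11 fell, where 26.7% and 33.3% did, the fallers including Park2 (-1.36) and Tfe3 (-1.02), another relative of Tfeb. The difference of the silencing effect between the days passed for 6 of these genes, where 5.81% of all genes passed, among them Atg9b (-1.39), Calcoco1 (-0.85) and the GTPase Rab7 (-0.49), which were lower at day 2 relative to day 0, and Sesn1 (0.72), which was higher. It passed for 3 of the 64 lysosomal genes, Ctsa (-0.70), Nagpa (-0.66) and Cd63 (-0.51).

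Replicates were compared within each slide as well. All 25 probes that passed at day 0, all 9 at day 2, all 41 in siControl over differentiation and all 36 in siBach1 kept their sign both in the arrays of slide 1 and in those of slide 2. These probes were picked in a fit of the same arrays, so the kept signs were largely fixed in advance and are no separate support. The member median at day 0 was 0.18 in slide 1 and 0.26 in slide 2, and at day 2 it was 0.055 and 0.089. Slide 2 holds 1 array a group and gives no test of its own. Where a gene had more than 1 tested probe, the probes had the same sign for 16 of 19 genes at day 0, 12 at day 2, 15 over differentiation in siControl and 12 in siBach1.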

How the data were processed

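RNA of 12 C2C12 samples was read on Agilent SurePrint G3 Mouse 8x60K v2 one-colour arrays. Per the file headers the authors scanned and extracted the signal intensity of each spot with Feature Extraction 10.7.3.1 (the submitters' processing notes give 9.1) on an mm9 design, and their deposited table of all probes holds gProcessedSignal intensities beside GeneSpring log2 values normalized by the authors to the 75th percentile. Here log2 of the processed intensity minus the 75th percentile of its array was used, after control and outlier spots were left out and spots of a probe averaged. Once each probe was centred on its median over the 12 arrays, these values differed from the authors' log2 values by a median of 0.00096. The levels given here are not centred in that way.

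Probes flagged well above background in every array of 1 or more groups (29664 of 56605) were fitted with limma 3.58.1 in R 4.3.3 (lmFit, eBayes; 4 groups, all 12 arrays, no block), with Benjamini-Hochberg adjustment over them and a threshold of 0.05. A list is described by its counts and median beside those of all probes tested. Gene names are those of the array table, and 64 of the 85 accessions were found in the RefSeq table, all with the same symbol. Promoter letters were searched in RefSeq sequences on GRCm38.p6.

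The members, gene lists and motifs were chosen with earlier results of these data known. Full values are given for up to 8 member probes with the largest change per comparison and, in any case, for 16 core genes; for other pathway genes at most 8 were named per comparison. The number of arrays limits precision. Arrays of the same number shared a slide and a row, and their deviations from the group means correlated in all 18 pairs (r from 0.142 to 0.595), so a fit with the replicate number as a block was also made; pairing and place on the slide cannot be told apart. Alternatives were quantile normalization, normexp background correction (offset 50), the authors' log2 values, no filter, slide as a block, each slide alone, only the arrays compared, the methods' test (Student's) per probe, a fold change of 2, 1 probe per gene, and leaving out each array.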

Additional observations from a re-analysis of the deposited data

Results flagged for a closer look

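The effect of Bach1 silencing on Wipi2 probe A_51_P214580 differed between day 2 and day 0 by a log2 value of -0.735 (SE 0.12, limma interaction term, adjusted p = 0.0135), with the 3 siBach1 arrays above the 3 siControl arrays at day 0 and overlapping them at day 2. The difference passed whichever of the 12 arrays was left out and did not pass without the filter on dim probes, and the other 2 tested Wipi2 probes did not pass for it.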

How the results depend on the processing

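Counts of member probes are given as higher and lower, with the shares of all probes in the same fit that were so in brackets. For silencing at day 0 the 20 and 5 (8.8% and 8.32%) became 11 and 5 (7.08% and 8.97%) with quantile normalization and 6 and 2 (1.83% and 2.55%) without the filter. They became 30 and 6 (16.2% and 11.3%) with the replicate block and 31 and 6 (16.7% and 11.3%) with slide as a block. Within slide 1 they were 11 and 5 (7.5% and 6.46%), and with only the arrays compared 9 and 4 (5.59% and 6.96%). The methods' test after Benjamini-Hochberg gave 10 and 2 (4.85% and 5.7%), 1 probe per gene gave 14 and 3 (11.9% and 10.8%), and a fold change of 2 gave 1 and 0 (0.809% and 1.98%). At day 2 the 7 and 2 (5.75% and 6.26%) became 9 and 1 (6.33% and 6.16%) with quantile normalization, 4 and 3 (4.76% and 7%) with normexp and 0 and 0 (1.26% and 1.05%) without the filter. They became 10 and 6 (9.78% and 11.6%) with the replicate block and 11 and 6 (9.9% and 11.9%) with slide as a block. The count was 1 and 0 within slide 1 (4.37% and 4.12%) and with only the arrays compared (3.74% and 3.25%). The methods' test gave 1 and 1 (1.59% and 2.11%) after Benjamini-Hochberg and 11 and 8 (11.3% and 12.9%) unadjusted. With 1 probe per gene it was 3 and 1 (7.32% and 8.79%), and with a fold change of 2 it was 0 and 0 (1.52% and 0.651%). In siControl over differentiation the 34 and 7 (24.6% and 28.7%) became 28 and 4 (11.3% and 13.1%) without the filter, 20 and 4 (28.5% and 30.9%) with 1 probe per gene, and 5 and 0 (10.5% and 9.46%) with a fold change of 2. In siBach1 the 29 and 7 (23.8% and 32.3%) became 16 and 4 (27.3% and 33.9%) with 1 probe per gene, and 5 and 1 (10.9% and 9.59%) with a fold change of 2. For the difference between the days the 0 and 1 (2.39% and 2.2%) became 0 and 2 (2.34% and 3.14%) with normexp. The count was 0 and 0 without the filter (0.0601% and 0.0265%), within slide 1 (0.266% and 0.111%), with 1 probe per gene (4.29% and 4.34%) and with a fold change of 2 (0.981% and 0.458%). It was 0 and 7 with the replicate block (5.16% and 7.86%) or slide as a block (5.25% and 8.44%). The methods' test gave 0 and 3 (2.55% and 3.6%) after Benjamini-Hochberg and 2 and 18 (8.59% and 13.7%) unadjusted. The cause of these shifts was not tested, except that the number of probes differs in 2 settings. The fit of 1 probe per gene tests 38 member probes in place of 73, and the fit without the filter tests 85 among 56605 probes. Over differentiation in siBach1 the values of Ctsl and Ctsb turned sign with quantile normalization (0.326 and 0.314), as did that of Atg3.

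Leaving out 1 array gave 8 to 19 higher and 4 to 6 lower for silencing at day 0, where 4.98 to 8.99% and 5.93 to 8.83% of all probes were. At day 2 it gave 0 to 7 and 1 to 3, where 3.2 to 6.45% and 2.91 to 6.97% of all were. For differentiation it gave 29 to 36 and 5 to 7 in siControl (21.7 to 26.1% and 25.8 to 29.5% of all) and 23 to 34 and 6 to 9 in siBach1 (21 to 25.2% and 29 to 32.6%). For the difference between the days it gave 0 and 1 throughout (0.961 to 2.34% and 0.654 to 1.57%). At day 2 the 7 higher probes also became 3 without siControl day 0 replicate 1 or 2, siBach1 day 0 replicate 1 or siBach1 day 2 replicate 2, 2 without siBach1 day 0 replicate 2, and 1 without siControl day 2 replicate 3, and the 2 lower ones became 1 without siControl day 2 replicate 1 or siBach1 day 2 replicate 3. Slide 2 alone held 1 array of each group and gave no test, and for the difference between the days, which uses all 4 groups, a fit of only the arrays compared is the fit already given. The replicate block kept all 25 calls of silencing at day 0 and all 9 at day 2, and added 11 and 7. Signal over background limits the 12 member probes left untested, and the widest error at day 0 was that of the dim Ulk1 probe A_55_P2736170 (SE 0.569).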
